A study of Mus musculus with 20 samples.

Results

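The 52 genes described here encode the actin cytoskeleton and the proteins that build, cut, bundle and anchor it. They were chosen by name from a list that covers the actins, the Arp2/3 complex, the WASP and WAVE family, formins and elongation factors, monomer-binding and turnover proteins, capping proteins, bundlers, membrane linkers and myosins. Of the 24421 genes in the deposited count table, 51 members were found by symbol and Diaph1 under its older symbol, and all 52 were among the 12465 genes that passed the filter on low counts. Their expression was measured by bulk RNA-seq in bone marrow-derived dendritic cells (BMDCs) grown from C57BL/6 mice with GM-CSF at 40 ng/mL for 8 days. No engineered allele is named for any group. Cultures from 5 mice, A to E, were each split over 4 groups: ovalbumin (Ova) with DMSO, IgG immune complexes of ovalbumin (IC) with DMSO, Ova with iBET, and IC with iBET. iBET is I-BET151, a small molecule that occupies the acetyl-lysine pocket of the BET bromodomain proteins, and was used at 3.3 µM. The labels give 5% DMSO for the solvent groups and 4 hours of stimulation for every group. Per the labels iBET and the stimulus were given together, whereas the study's methods place iBET first.

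Actin is stored in the cell as monomers bound to profilin and thymosins, and grows into filaments from nucleators. The Arp2/3 complex, switched on by WASP and WAVE proteins downstream of Cdc42 and Rac, starts branched networks, while formins and Ena/VASP proteins extend unbranched filaments. Capping proteins stop growth, cofilin and gelsolin sever, fimbrin and alpha-actinin bundle, and talin, vinculin and the ERM proteins tie filaments to integrins or to the membrane. In dendritic cells these genes serve phagocytosis, podosomes, antigen sampling and amoeboid migration. Several members, among them Fmnl1, Wipf1, Hcls1, Nckap1l, Coro1a, Lcp1, Myo1f and Myo1g, are expressed mainly in blood cells.

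The 20 libraries held 16447491 to 29245150 counts (median 21764663), of which 3.86% to 4.88% fell on the 52 members and 2.69% to 8.61% on the ribosomal RNA gene Rn45s. The lowest member count in any library was 99, for Abi3. Values are CPM, counts scaled to a common library size after TMM normalization, listed for mice A to E in that order. Errors of CPM means are SD over 5 mice. Errors of log2 changes are standard errors (SE) of the edgeR fit of all 20 libraries, not the spread between mice. Dendritic cell markers summed to 4360 to 9080 CPM, against at most 0.630 CPM for stromal and at most 0.488 CPM for B and T cell markers. Macrophage markers (7 genes, Adgre1, Csf1r and C1qa among them) were also present, at 1018 to 2085 CPM in sum. Neutrophil markers (7 of 8 in the table) summed to 12.1 to 51.3 CPM, megakaryocyte markers to 40.4 to 123 CPM, mast cell and basophil markers to 2.93 to 13.2 CPM, and erythroid markers to 0.292 to 6.62 CPM. The megakaryocyte sum was mostly Pf4, with group means of 66.3 to 76.1 CPM, while Gp9 averaged at most 0.0297 CPM. The mast cell and basophil sum was mostly Gata2, at 2.97 to 6.96 CPM, while Mcpt8 averaged at most 0.0907 CPM. Fewer cells of a type and less RNA per cell cannot be told apart in such bulk samples.

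Per kilobase of exon, Actb (beta-actin) was the highest member, with 4577 CPM per kilobase in DMSO Ova, followed by Tmsb4x (thymosin beta-4) at 2432 and Actg1 (gamma-actin) at 1853. The next were the capping protein Capg at 344, profilin-1 (Pfn1) at 318 and thymosin beta-10 (Tmsb10) at 308 CPM per kilobase. The lowest were Enah at 1.63 and Wasl (N-WASP) at 2.39. All of these are levels on the length-corrected scale, and each is the mean of 5 libraries. The length used was that of all annotated exons of a gene merged, 21452 bases for Enah. Without that correction Enah averaged 34.9 CPM in DMSO Ova, above Wasl at 14.7 CPM.

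iBET lowered 24 of the 52 genes and raised 6 in the Ova cultures, by edgeR's quasi-likelihood test at an adjusted p under 0.05 over 12465 genes, and 22 did not pass. Of all genes tested, 56.6% passed in this comparison, 28.9% lower and 27.7% higher. In the IC cultures 24 were lower and 7 higher, against 29.0% and 27.1% of all genes and 56.1% in either direction. The number of members that passed was near that background, while more of them fell and fewer rose than among all genes. The median member changed by -0.16 on the log2 scale with Ova and by -0.18 with IC, while the medians of all genes were -0.0029 and -0.0054. Of the members, 22 fell under both stimuli and 6 rose under both, and 0 changed direction. In 17 members with Ova and 20 with IC every iBET library lay below every DMSO library, which was the case for 19.5% and 21.6% of all genes. The opposite held for 3 members under each stimulus, against 18.5% and 21.1%. A fit that kept the mouse as a block called 38 members with Ova (9 higher, 29 lower) and 40 with IC (8 higher, 32 lower), including every earlier call in its earlier direction, beside 68.7% and 68.0% of all genes in that fit.

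**Figure D1:**
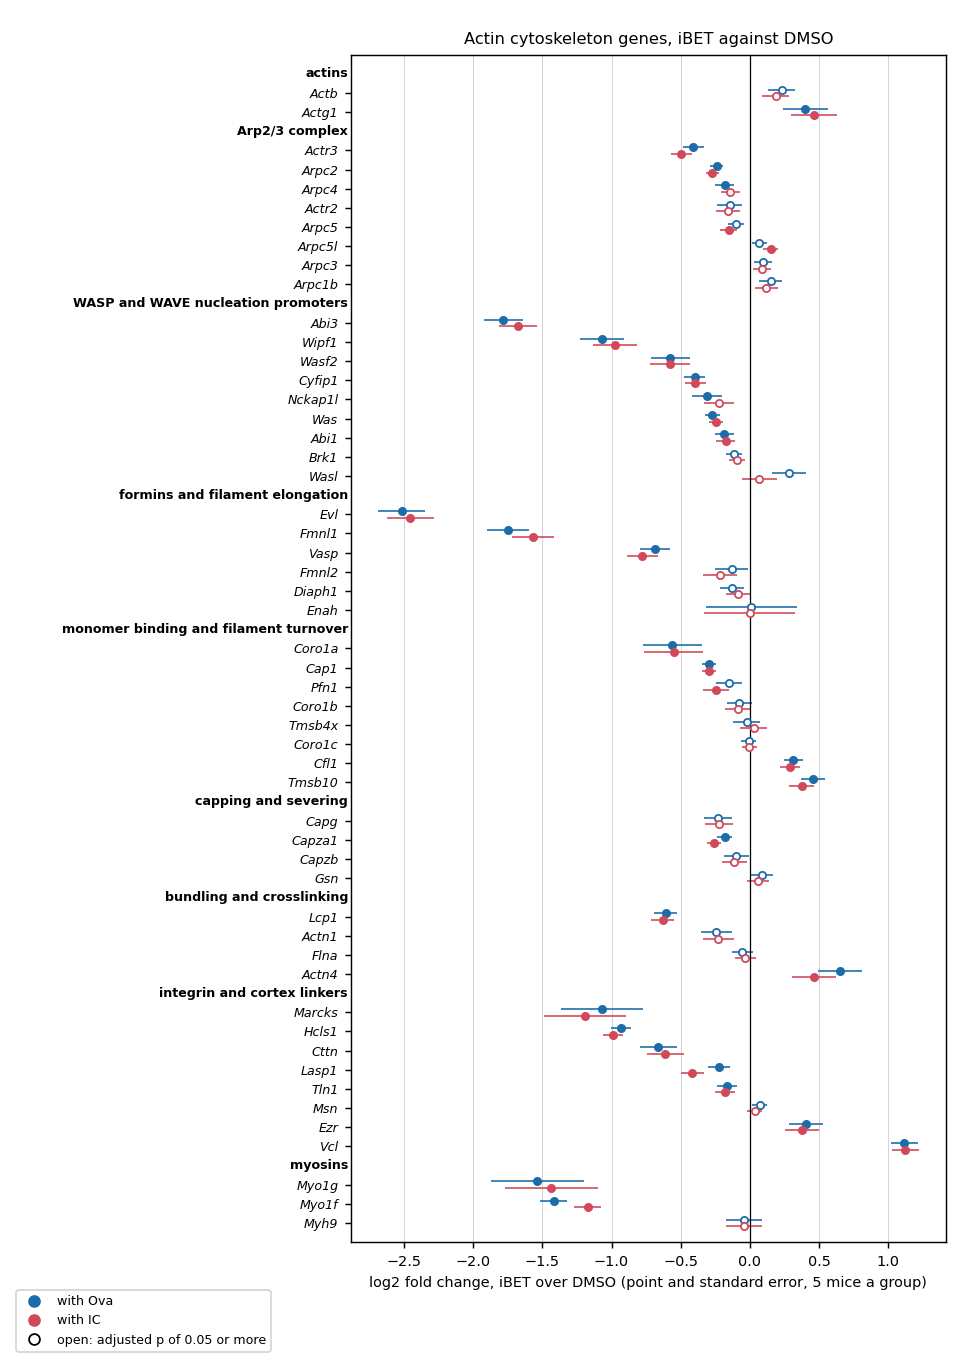
The log2 fold change of iBET over DMSO (horizontal axis) is plotted for each of the 52 genes with Ova (blue) and with IC (red), grouped by role. Points with bars are the fitted value and its standard error over 5 mice a group, and filled points passed an adjusted p of 0.05. Evl lies furthest to the left at -2.52 and -2.45, and Vcl furthest to the right at 1.11 and 1.12.

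Promoter sequences (RefSeq, GRCm38.p6, 250 bases before to 50 after each start) were at hand for 43 of the 52 members in 53 windows. They were searched on both strands for the CArG box, the element bound by SRF at many actin genes, for GAGGAA, a core that the myeloid factor PU.1 can bind, and for CCGGAAGT, a longer ETS-family site. The latter share GGAA, yet neither contains the other. The motifs were chosen after the expression values had been seen, and a match is a description of letters, not evidence of binding. A CArG box was present in 3 of 53 member windows (5.66%) and in 1.63% of all 32851 windows. Its holders were Vcl and Actg1, both higher with iBET under both stimuli, and Arpc4, lower with Ova. Actb was among the members without a window and was not searched. These windows are shown with the CArG box in capitals.
Vcl (chr14:20929148-20929447, plus strand): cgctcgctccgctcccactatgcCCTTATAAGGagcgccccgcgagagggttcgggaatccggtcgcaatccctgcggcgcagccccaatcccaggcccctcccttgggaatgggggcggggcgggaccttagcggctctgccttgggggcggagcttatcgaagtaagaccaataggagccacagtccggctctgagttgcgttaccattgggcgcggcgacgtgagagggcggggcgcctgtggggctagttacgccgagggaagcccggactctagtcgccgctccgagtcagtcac
Actg1 (chr11:120348446-120348745, minus strand): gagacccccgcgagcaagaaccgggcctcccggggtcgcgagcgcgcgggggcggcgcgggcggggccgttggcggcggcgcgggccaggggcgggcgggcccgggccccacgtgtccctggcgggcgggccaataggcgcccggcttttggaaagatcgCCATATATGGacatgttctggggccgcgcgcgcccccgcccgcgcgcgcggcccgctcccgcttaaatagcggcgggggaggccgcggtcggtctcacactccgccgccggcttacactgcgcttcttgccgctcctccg
Arpc4 (chr6:113377863-113378162, plus strand): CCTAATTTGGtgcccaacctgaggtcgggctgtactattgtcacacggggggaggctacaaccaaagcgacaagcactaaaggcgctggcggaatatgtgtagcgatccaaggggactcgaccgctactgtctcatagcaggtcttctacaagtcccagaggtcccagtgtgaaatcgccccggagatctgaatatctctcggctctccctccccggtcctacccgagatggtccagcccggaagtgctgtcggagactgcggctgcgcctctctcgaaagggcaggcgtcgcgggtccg
CCGGAAGT lay in 4 of the 7 Arp2/3 windows (Actr2, Actr3, Arpc3 and Arpc4) and, among the other members, in Coro1c alone, against 3.89% of all windows. The windows of the complex's 2 actin-related subunits show it in capitals, in Actr2 on the opposite strand.
Actr2 (chr11:20112902-20113201, minus strand): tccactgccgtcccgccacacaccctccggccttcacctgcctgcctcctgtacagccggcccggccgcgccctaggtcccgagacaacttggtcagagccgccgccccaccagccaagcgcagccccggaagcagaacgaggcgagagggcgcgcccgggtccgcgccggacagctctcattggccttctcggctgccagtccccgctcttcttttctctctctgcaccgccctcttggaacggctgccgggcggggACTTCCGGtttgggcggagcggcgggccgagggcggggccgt
Actr3 (chr1:125435678-125435977, minus strand): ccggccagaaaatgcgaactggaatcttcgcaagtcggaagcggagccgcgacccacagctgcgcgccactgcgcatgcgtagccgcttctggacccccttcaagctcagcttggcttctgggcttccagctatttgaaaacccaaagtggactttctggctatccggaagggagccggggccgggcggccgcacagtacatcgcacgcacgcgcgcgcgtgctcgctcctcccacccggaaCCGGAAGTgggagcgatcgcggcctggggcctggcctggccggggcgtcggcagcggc
GAGGAA occurred in 26.4% of member windows and 28.3% of all windows. Of its 13 holders 8 fell with iBET under both stimuli, as did 18 of the 43 members with a window. The holders Enah, Gsn, Arpc1b, Brk1 and Msn were not called without the mouse block. GAGGAA is shown in capitals, on either strand, for Fmnl1 and Myo1f, which were among the members that fell most.
Fmnl1 (chr11:103170888-103171187, plus strand): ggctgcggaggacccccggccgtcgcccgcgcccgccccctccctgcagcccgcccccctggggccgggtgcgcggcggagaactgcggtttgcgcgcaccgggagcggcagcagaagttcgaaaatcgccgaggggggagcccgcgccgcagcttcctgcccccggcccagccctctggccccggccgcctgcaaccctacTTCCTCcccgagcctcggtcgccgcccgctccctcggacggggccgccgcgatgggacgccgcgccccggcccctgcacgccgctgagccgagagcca
Myo1f (chr17:33555457-33555756, plus strand): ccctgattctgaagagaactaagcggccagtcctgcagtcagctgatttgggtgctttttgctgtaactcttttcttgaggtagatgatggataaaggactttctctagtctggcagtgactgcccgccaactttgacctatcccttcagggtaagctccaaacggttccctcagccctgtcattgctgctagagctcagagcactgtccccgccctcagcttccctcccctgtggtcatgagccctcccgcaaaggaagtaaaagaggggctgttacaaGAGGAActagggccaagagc

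Both cytoplasmic actins read higher with iBET, gamma-actin past the threshold. Actg1 (chr11:120345690-120348542, mm10) read 4133, 4327, 4957, 6049 and 5154 CPM with DMSO and 5384, 4869, 6309, 8328 and 7599.6 CPM with iBET in the Ova cultures. With IC it read 4378, 4394, 5489, 6567 and 6426 CPM with DMSO and 6073, 6226, 7872, 8910.1 and 8447 CPM with iBET. Every mouse was higher with iBET, although the groups overlapped, with mouse D highest in each of them. The log2 change was 0.40 ± 0.16, adjusted p = 0.0433, with Ova and 0.46 ± 0.16, adjusted p = 0.0216, with IC (SE, edgeR), which is 1.32-fold and 1.38-fold. The call with Ova was lost without mouse A, C, D or E, with scaling by library size alone, and with limma on the deposited normalized values, and that with IC without mouse C. Actb (chr5:142903115-142906754) went from 11458, 11159.9, 12268, 13605 and 12814 CPM to 13809, 11826, 13854, 16069.6 and 16275 CPM in the Ova cultures. In the IC cultures it went from 12336, 12659, 14335, 15516 and 15638 CPM to 14903, 14991, 16563, 16499 and 17299.7 CPM. It was higher with iBET in 5 of 5 mice under both stimuli, with log2 changes of 0.23 ± 0.10 (adjusted p = 0.0521) and 0.19 ± 0.10 (adjusted p = 0.109), and did not pass. With the mouse block it passed under both (adjusted p = 0.000648 and 0.00237), and with Ova also by DESeq2. The actins are near-identical in sequence and have processed pseudogenes, so the division of reads between them is uncertain.

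**Figure D2:**
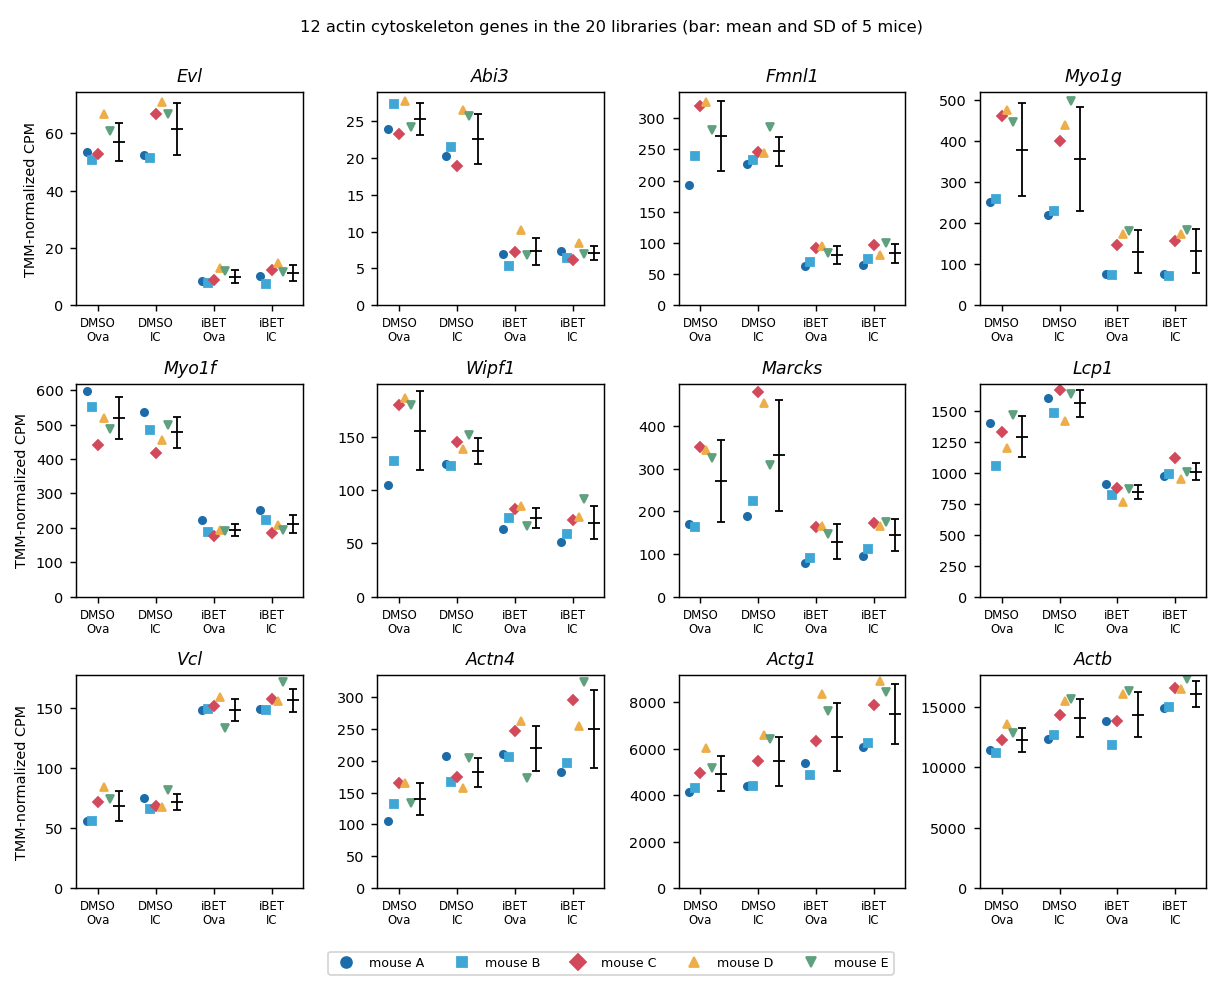
TMM-normalized CPM of 12 genes (vertical axes, starting at 0) in the 20 libraries, with a symbol and colour for each mouse and a black bar for the mean and SD of 5 mice. Evl, Abi3, Fmnl1, Myo1f and Lcp1 show iBET libraries below all DMSO libraries of the same stimulus, Vcl shows them above, and in Myo1g and Marcks mice A and B sit below mice C, D and E within each group.

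The Arp2/3 complex changed unevenly among its subunits. Of its 8 members, 3 fell (Actr3, Arpc2 and Arpc4) and 5 did not pass with Ova, and 3 fell (Actr3, Arpc2 and Arpc5), 1 rose and 4 did not pass with IC. Actr3 (Arp3, chr1:125392905-125435727) fell most, from 504, 472, 525, 581 and 618 CPM with DMSO to 376, 395, 407, 436 and 418 CPM with iBET in the Ova cultures. With IC its values were 489.7, 487, 561, 585 and 557 CPM and 359, 356, 368, 412 and 405 CPM. No iBET library reached the lowest DMSO library, and the log2 changes were -0.41 ± 0.077, adjusted p = 0.000155, and -0.50 ± 0.078, adjusted p = 1.88e-05. Arpc2, a core subunit, fell under both stimuli as well, at -0.24 ± 0.047 and -0.27 ± 0.047 on the log2 scale. Arp2 (Actr2), the other actin-related subunit beside Actr3, had -0.15 ± 0.089 and -0.16 ± 0.089. It did not pass without the mouse block but did with it (adjusted p = 0.033 and 0.0254). Of the smaller subunits Arpc3 had 0.093 and 0.085, Arpc4 -0.18 and -0.14, and Arpc5 -0.10 and -0.15. The block added Arpc4 with IC (adjusted p = 0.016) and Arpc5 with Ova (adjusted p = 0.0362) to those that fell. Arpc1b, a propeller-shaped subunit, averaged 685 ± 81.3 CPM in DMSO Ova, 760.4 ± 72.8 in iBET Ova, 808 ± 24.3 in DMSO IC and 878 ± 66.1 in iBET IC, and was called for iBET with the block, higher with Ova (adjusted p = 0.033). Arpc5l, the alternative form of the Arpc5 subunit, was the single subunit that rose, with IC (0.15 ± 0.055, adjusted p = 0.0275), in 4 of 5 mice.

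Most activators of that complex fell. Of the 9 WASP and WAVE members 7 fell with Ova and 6 with IC, and 0 rose. With the mouse block 8 fell and 1 (Wasl) rose with Ova, and 8 fell with IC. Abi3 (chr11:95830074-95842476), a WAVE complex subunit of the Abi family, was the most strongly lowered. It read 23.9, 27.3, 23.2, 27.8 and 24.2 CPM with DMSO and 6.95, 5.37, 7.29, 10.3 and 6.78 CPM with iBET in the Ova cultures. In the IC cultures it read 20.3, 21.4, 18.9, 26.5 and 25.7 CPM and 7.36, 6.36, 6.21, 8.49 and 6.90 CPM. Groups did not overlap, and the level with iBET was 0.291 of that with DMSO (-1.78 ± 0.14, adjusted p = 1.94e-09) and 0.313 with IC (-1.68 ± 0.14, adjusted p = 4.17e-09). Its broadly expressed relative Abi1 fell, at -0.18 ± 0.067 and -0.18 ± 0.067. Wipf1 (chr2:73429610-73529734), the WIP protein that holds and stabilizes WASP, read 105, 128, 179, 187 and 179 CPM with DMSO Ova and 63.5, 73.9, 81.9, 85.3 and 66.1 CPM with iBET Ova. With IC it had 125, 123, 145, 139 and 151 CPM and 51.4, 58.5, 72.1, 74.4 and 91.6 CPM. Again the groups were separate, with log2 changes of -1.07 ± 0.16, adjusted p = 1.02e-05, and -0.97 ± 0.16, adjusted p = 3.03e-05. Was itself fell less, at -0.27 ± 0.052 and -0.25 ± 0.052.

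Within the WAVE complex, Wasf2 (WAVE2) changed by -0.58 ± 0.14 with Ova and -0.58 ± 0.14 with IC, and Cyfip1, the subunit that receives Rac, by -0.40 ± 0.076 and -0.40 ± 0.076, all past the test. Nckap1l (Hem1), the blood cell scaffold of the complex, averaged 571 ± 73.9 CPM in DMSO Ova and 459.9 ± 57.9 in iBET Ova. Its averages with IC were 537 ± 63.6 and 460.1 ± 55.2 CPM. It passed with Ova (-0.31 ± 0.11, adjusted p = 0.0211) and not with IC (-0.22 ± 0.11, adjusted p = 0.091). The small subunit Brk1 (-0.11 ± 0.058 and -0.092 ± 0.058) and Wasl (0.28 ± 0.13 and 0.068 ± 0.13) did not pass under either stimulus. With the mouse block Brk1 passed under both (adjusted p = 0.0141 and 0.044), Wasl with Ova (adjusted p = 0.039) and Nckap1l also with IC (adjusted p = 5.78e-05).

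The largest change of any member was in Evl (chr12:108554720-108688516), an Ena/VASP protein that protects and extends filament tips. With Ova it read 53.5, 50.7, 52.7, 66.8 and 60.7 CPM in the DMSO cultures and 8.40, 7.64, 8.87, 12.8 and 11.8 CPM in the iBET cultures. With IC the values were 52.3, 51.3, 66.6, 71.0 and 66.6 CPM and 10.3, 7.27, 12.4, 14.6 and 11.7 CPM. Every iBET library was far below every DMSO library, at 0.175 of the DMSO level with Ova (-2.52 ± 0.17, adjusted p = 2.58e-10) and 0.182 with IC (-2.45 ± 0.17, adjusted p = 3.26e-10). Its paralog Vasp fell less, with -0.69 ± 0.11 and -0.78 ± 0.11 on the log2 scale, while Enah had 0.0093 ± 0.33 and -0.00085 ± 0.33 and did not pass. Enah ranged from 15.1 to 55.0 CPM in DMSO Ova alone.

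The leukocyte formin Fmnl1 (chr11:103171107-103198901) was also strongly lower with iBET. It read 192, 239, 319.8, 326 and 281 CPM with DMSO and 63.0, 69.7, 92.6, 95.5 and 83.8 CPM with iBET in the Ova cultures. In the IC cultures the readings were 226, 232, 245, 245 and 285 CPM and 64.6, 74.4, 97.2, 80.9 and 99.995 CPM. The highest iBET library was under the lowest DMSO library, and the log2 changes were -1.75 ± 0.15, adjusted p = 8.53e-09, and -1.56 ± 0.15, adjusted p = 3.61e-08. Its relative Fmnl2 had -0.13 ± 0.12 and -0.22 ± 0.12, neither past the test, and passed with IC with the block (adjusted p = 0.0121). The formin Diaph1 (mDia1) averaged 438 ± 47.8 CPM in DMSO Ova, 401 ± 23.5 in iBET Ova, 401 ± 32.1 in DMSO IC and 377 ± 45.4 in iBET IC, with no call.

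Proteins that hold monomers or turn filaments over moved in both directions. Tmsb10 (chr6:72957347-72958748) rose, from 439, 401, 348, 403 and 375 CPM to 543, 436, 545, 552 and 622 CPM with Ova. With IC it rose from 498, 486, 592, 541 and 478 CPM to 680.1, 650.0, 695, 731 and 604 CPM. It was higher with iBET in all 5 mice under both stimuli, by 0.46 ± 0.088, adjusted p = 0.000188, and 0.37 ± 0.088, adjusted p = 0.00125, on the log2 scale. The related Tmsb4x (chrX:167207093-167209315), the main peptide that sequesters monomers, read 3137, 3069, 3212, 3636 and 3615 CPM with DMSO Ova and 3247, 3082, 3159, 3473 and 3427 CPM with iBET Ova. With IC it read 3409.6, 3082, 4146, 4412 and 3707 CPM and 3870.4, 3406, 3698, 4490.5 and 3630.4 CPM. The groups overlapped, and the log2 change was -0.024 (95% interval -0.23 to 0.18, adjusted p = 0.842) with Ova and 0.026 (interval -0.17 to 0.23, adjusted p = 0.834) with IC. Its sign changed under some alternatives.

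Cofilin-1 (Cfl1), which severs old filaments, rose by 0.31 ± 0.071, adjusted p = 0.000865, with Ova and 0.29 ± 0.071, adjusted p = 0.00178, with IC, with no overlap between iBET and DMSO. Cap1, which recycles actin monomers from cofilin, fell, at -0.30 ± 0.051 and -0.30 ± 0.051. Coro1a, the blood cell coronin, fell, at -0.56 ± 0.21 and -0.55 ± 0.21, whereas Coro1b (-0.077 and -0.089) and Coro1c (-0.010 and -0.0046) did not pass. Pfn1 was called lower with IC alone, at -0.24 ± 0.091, against -0.15 ± 0.091 with Ova. The difference between these 2 values did not pass the interaction test.

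Among capping and severing proteins, Capza1, a subunit of capping protein, was the 1 of 4 that passed, with log2 changes of -0.18 ± 0.053 and -0.26 ± 0.053. Capg, a gelsolin relative of macrophages and dendritic cells, averaged 871 ± 129 CPM in DMSO Ova, 741 ± 99.2 in iBET Ova, 1020.1 ± 80.7 in DMSO IC and 875 ± 77.0 in iBET IC. In 5 of 5 mice iBET gave the lower value, whichever the stimulus, and the gene passed with the mouse block (adjusted p = 0.00185 and 0.00252). Gelsolin (Gsn) had 0.087 ± 0.077 and 0.058 ± 0.077, without a call, and Capzb, the other capping protein subunit, had -0.10 ± 0.090 and -0.11 ± 0.090, of which that with IC passed with the block (adjusted p = 0.0471).

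The bundling proteins split by gene. Lcp1 (chr14:75131101-75230842), the leukocyte fimbrin L-plastin, read 1408, 1054, 1334, 1202 and 1474 CPM with DMSO Ova and 909.9, 822, 878, 764 and 869.9 CPM with iBET Ova. In the IC cultures it read 1609, 1484, 1676, 1419 and 1643 CPM and 979, 989, 1126, 956 and 1006 CPM. All iBET libraries lay under all DMSO libraries of the same stimulus, with log2 changes of -0.61 ± 0.084, adjusted p = 4e-06, and -0.63 ± 0.084, adjusted p = 2.52e-06. Alpha-actinin-4 (Actn4, chr7:28893248-28962340) went the other way, from 106, 131, 164, 165 and 133 CPM to 210.0, 205, 247, 262 and 173 CPM with Ova, with no overlap. With IC it went from 207, 166, 175, 157 and 204 CPM to 182, 196, 296, 254 and 323 CPM, where mouse A was lower with iBET and the groups overlapped. The log2 changes were 0.65 ± 0.16, adjusted p = 0.00166, and 0.46 ± 0.16, adjusted p = 0.0178. With IC the change was 0.040 in mice A and B and 0.73 in mice C, D and E, and the call was lost without mouse C, D or E. Alpha-actinin-1 (Actn1) had -0.24 ± 0.11 and -0.23 ± 0.11, past the test with the mouse block but not without it (adjusted p = 0.0131 and 0.0106). Filamin A (Flna), which crosslinks filaments into gels, averaged 2882 ± 139.8 CPM in DMSO Ova, 2771 ± 274 in iBET Ova, 2576 ± 213 in DMSO IC and 2517 ± 172 in iBET IC, without an iBET call.

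Vinculin (Vcl, chr14:20929398-21033676), which reinforces talin at integrin adhesions, was the member that rose most. It read 56.4, 56.1, 71.5, 84.2 and 74.7 CPM with DMSO Ova and 148, 149, 152, 159.7 and 134 CPM with iBET Ova. Under IC the readings were 75.0, 66.5, 68.8, 67.6 and 81.9 CPM and 149, 148, 158, 156 and 172 CPM. All iBET libraries exceeded all DMSO libraries of the same stimulus, at 2.16-fold with Ova (1.11 ± 0.10, adjusted p = 9.12e-09) and 2.18-fold with IC (1.12 ± 0.10, adjusted p = 8.22e-09). Talin-1 (Tln1), its partner, fell, at -0.17 ± 0.070 and -0.18 ± 0.070. Ezrin (Ezr), an ERM linker of filaments to the plasma membrane, read 198, 165, 205, 188 and 216 CPM with DMSO Ova and 211, 207, 280.4, 277 and 309 CPM with iBET Ova. In the IC cultures Ezr had 188, 209, 269, 249.6 and 247 CPM and 267, 263, 338, 333 and 309.6 CPM. It was higher in 5 of 5 mice under both stimuli, by 0.40 ± 0.12, adjusted p = 0.00797, and 0.38 ± 0.12, adjusted p = 0.0125, although the groups overlapped. Moesin (Msn), another ERM linker, averaged 1205 ± 58.7 CPM in DMSO Ova, 1266 ± 62.1 in iBET Ova, 1379 ± 49.2 in DMSO IC and 1413 ± 61.3 in iBET IC, and did not pass for iBET.

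The other cortex linkers fell. Marcks (chr10:37133375-37138920), a membrane-bound crosslinker released by protein kinase C, read 171, 163, 352, 343 and 326 CPM with DMSO Ova and 78.9, 90.7, 163, 166 and 147 CPM with iBET Ova. With IC it read 189.7, 226, 479, 453 and 309.5 CPM and 96.5, 113, 174, 167 and 176 CPM. Each mouse read lower with iBET, and mice A and B with DMSO were close to mice C, D and E with iBET, so that the groups overlapped with Ova. The log2 changes were -1.07 ± 0.30, adjusted p = 0.0046, and -1.19 ± 0.30, adjusted p = 0.00207. Hcls1 (chr16:36934983-36963212), the cortactin of blood cells, went from 151, 121, 134, 132 and 136 CPM to 67.9, 61.2, 72.1, 76.1 and 77.2 CPM with Ova. With IC it went from 145, 144, 168, 164 and 164 CPM to 76.7, 76.3, 86.9, 79.2 and 76.1 CPM. The groups were fully apart, at -0.93 ± 0.072, adjusted p = 1.94e-09, and -0.99 ± 0.072, adjusted p = 7.37e-10. Cortactin itself (Cttn), at a lower level, fell, at -0.66 ± 0.13 and -0.61 ± 0.13, and Lasp1, a focal adhesion adaptor, at -0.22 ± 0.081 and -0.42 ± 0.081.

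Of the 3 myosins, the class I motors fell and the conventional one did not pass. Myo1f (chr17:33555707-33607764), a membrane-tethering motor of immune cells, read 597, 551, 439.6, 518 and 488 CPM with DMSO Ova and 222, 188, 175, 195 and 190.2 CPM with iBET Ova. Under IC its values were 536, 485, 417, 454 and 499 CPM and 251, 222, 186, 209 and 193 CPM. There was no overlap, and the log2 changes were -1.42 ± 0.10, adjusted p = 2.94e-10, and -1.17 ± 0.10, adjusted p = 3.57e-09. Myo1g (chr11:6506548-6520965), another motor of the blood cell membrane, read 252, 260.5, 462, 478 and 447 CPM with DMSO Ova and 76.5, 75.0, 147, 174 and 182 CPM with iBET Ova. With IC it read 219.9, 229, 400.3, 439 and 498 CPM and 75.6, 71.0, 157, 174 and 184 CPM. Every iBET library was again below every DMSO library, at -1.54 ± 0.34, adjusted p = 0.000621, and -1.44 ± 0.33, adjusted p = 0.00113, and within each group mice A and B lay below the other mice. Myh9 (non-muscle myosin IIA heavy chain), the contractile motor, averaged 1849 ± 314 CPM in DMSO Ova, 1796 ± 219.6 in iBET Ova, 1919 ± 233 in DMSO IC and 1862 ± 300.2 in iBET IC.

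Immune complexes moved fewer members. Against Ova, IC raised 12 of the 52 genes and lowered 1 in the DMSO cultures, where 9.59% of all genes rose, 10.7% fell and 20.3% passed in either direction. With iBET present 4 rose and 1 fell, against 5.19% and 6.63% of all genes and 11.8% in either direction. Of these, 3 members (Fmnl2, Tmsb10 and Lasp1) rose and Arpc5l fell in both. Groups did not overlap, with IC higher, in 7 members with DMSO and 5 with iBET (5.97% and 4.57% of all genes), and with IC lower in 1 member in each (6.41% and 5.46%). The mouse block raised the counts to 25 (22 higher, 3 lower) and 24 (20 higher, 4 lower), beside 38.1% and 28.9% of all genes in that fit. Scaling by library size alone gave 7 calls (3 higher, 4 lower) with DMSO, and 4 of the earlier 13 calls were kept. With iBET it gave 2 (0 higher, 2 lower), and 1 of the earlier 5 was kept. That scaling moved the median of all genes from -0.024 to -0.13 with DMSO and from -0.014 to -0.12 with iBET. Relative to the all-gene median the members' median was 0.13 higher under both scalings with DMSO. The number of calls also varied with the mouse left out, in fits without the mouse block that hold fewer samples. In the DMSO cultures there were 3 without mouse C, 6 without mouse D, 7 without mouse B or E and 13 without mouse A. In the iBET cultures there were 0 without mouse A, B or D, 1 without mouse C and 3 without mouse E.

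**Figure D3:**
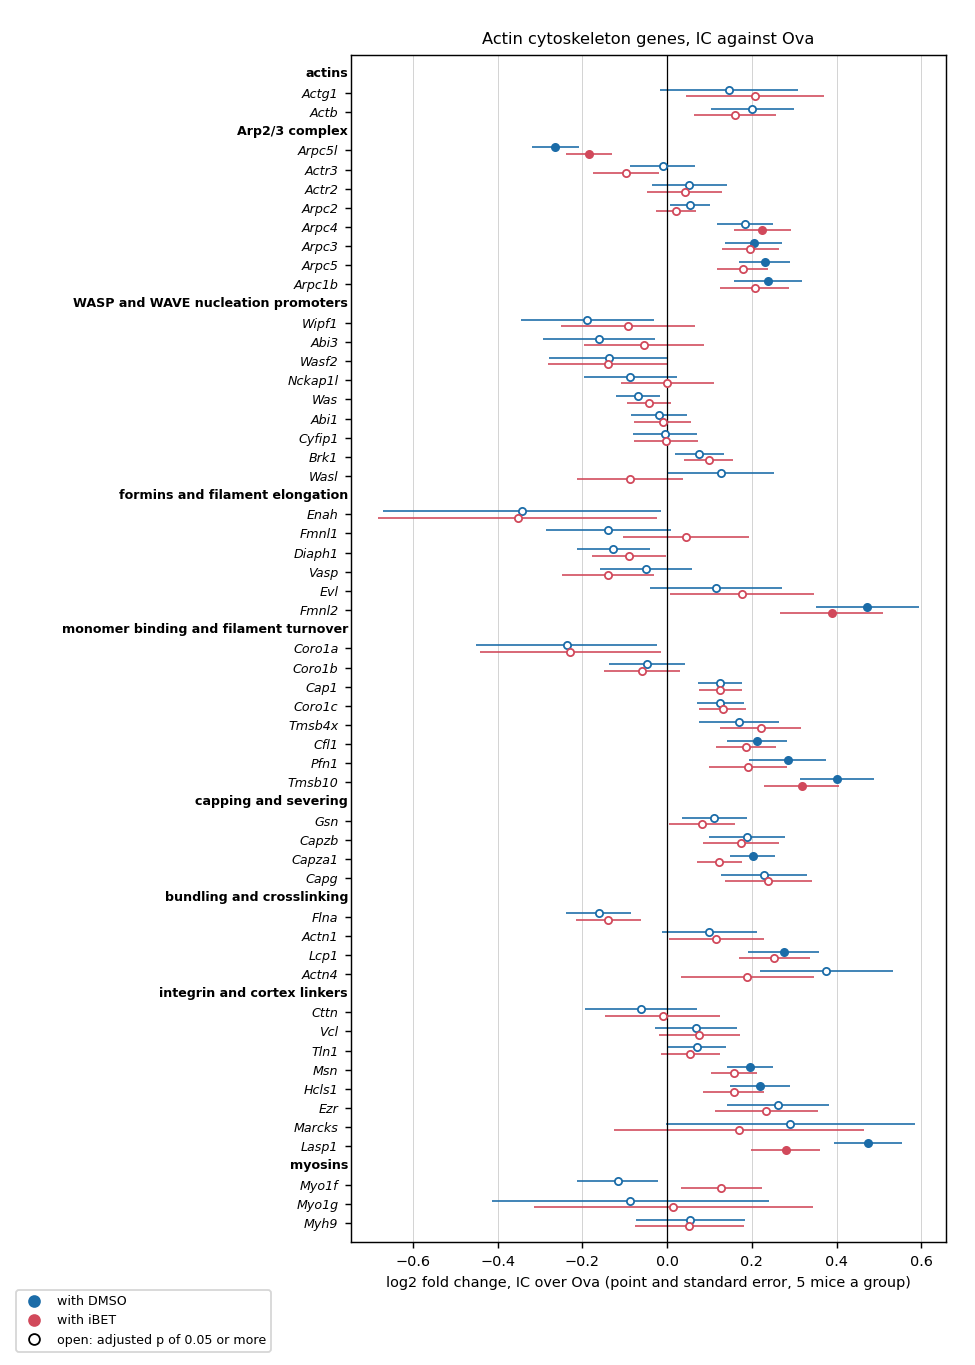
The log2 fold change of IC over Ova (horizontal axis) is plotted for each of the 52 genes with DMSO (blue) and with iBET (red), grouped by role. Points with bars are the fitted value and its standard error over 5 mice a group, and filled points passed an adjusted p of 0.05. Fmnl2 and Lasp1 lie furthest to the right with DMSO, both at 0.47.

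Lasp1 (chr11:97799000-97838764) read 234, 213, 266, 254 and 239 CPM with Ova and 344, 320.5, 353, 298 and 360.4 CPM with IC in the DMSO cultures. With iBET it read 206, 184, 227, 209 and 207 CPM and 228, 231, 294, 235 and 267 CPM. The IC libraries were above the Ova libraries in both settings, by 0.47 ± 0.081, adjusted p = 0.000442, and 0.28 ± 0.081, adjusted p = 0.0292, on the log2 scale. Fmnl2 (chr2:52857860-53133804), the formin that did not pass for iBET without the block, went from 58.1, 51.9, 72.8, 53.6 and 66.1 CPM with Ova to 88.1, 85.4, 98.3, 73.9 and 74.3 CPM with IC under DMSO. Under iBET it went from 51.2, 62.1, 67.6, 46.2 and 49.0 CPM to 68.2, 70.3, 85.1, 60.3 and 77.4 CPM. It was higher with IC in 5 of 5 mice in both settings, by 0.47 ± 0.12, adjusted p = 0.00967, and 0.39 ± 0.12, adjusted p = 0.0424. Tmsb10, whose values are given above, rose by 0.40 ± 0.088, adjusted p = 0.00335, with DMSO and 0.32 ± 0.088, adjusted p = 0.0231, with iBET.

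Pfn1 (chr11:70651850-70654644), which delivers actin monomers to formins, read 814, 728, 762, 752 and 769 CPM with Ova and 825, 853, 969, 959.8 and 1051 CPM with IC under DMSO, with no overlap. Its log2 change was 0.28 ± 0.091, adjusted p = 0.0334, and with iBET, from 713, 518, 664, 733 and 818 CPM to 801, 773, 789.7, 806 and 763 CPM, it was 0.19 ± 0.091, adjusted p = 0.188 (0.0488 with the mouse block). Lcp1 rose by 0.28 ± 0.083, adjusted p = 0.025, with DMSO, and had 0.25 ± 0.084 (adjusted p = 0.0548, and 0.00277 with the block) with iBET. The other members that rose with DMSO were the Arp2/3 subunits Arpc1b, Arpc3 and Arpc5, Cfl1, Capza1, Msn and Hcls1, by 0.19 to 0.24 on the log2 scale. Arpc4 (chr6:113378115-113390448), also of the complex, read 279.5, 232, 241, 282 and 284 CPM with Ova and 329, 305, 296, 325 and 286 CPM with IC under iBET and passed there (0.22 ± 0.067, adjusted p = 0.0342), and had 0.18 ± 0.067 (adjusted p = 0.059, and 0.0063 with the block) with DMSO.

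Arpc5l (chr2:39005348-39015877) was the exception to the upward split. It read 48.8, 45.4, 48.4, 50.6 and 51.5 CPM with Ova and 41.7, 38.4, 40.6, 38.3 and 44.9 CPM with IC under DMSO. Under iBET the values were 51.6, 52.4, 50.5, 48.8 and 53.4 CPM and 46.0, 47.3, 42.5, 47.2 and 42.8 CPM. The IC libraries were below the Ova libraries in both settings, at -0.26 ± 0.055, adjusted p = 0.00224, and -0.18 ± 0.055, adjusted p = 0.0333. Its counterpart Arpc5 rose with IC under DMSO (0.23 ± 0.060, adjusted p = 0.0106), so the alternative subunits of this position went opposite ways. None of the 9 WASP and WAVE members and none of the 3 myosins passed for IC in either setting.

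Whether iBET altered the response to IC was tested as an interaction. By edgeR 0 of the 52 members passed, 0 had an unadjusted p under 0.05, and 5 of 12465 genes (0.0401%) passed in all, 0.0241% with a higher and 0.0160% with a lower IC response under iBET. The members with the smallest p were Myo1f, with a difference of 0.25 ± 0.13 in log2 change (95% interval -0.039 to 0.53), and Lasp1, with -0.19 ± 0.11 (interval -0.44 to 0.049). DESeq2 called 0 members without and 1 with the mouse block, Myo1f at 0.24 with an adjusted p of 0.0198. With the mouse block edgeR called 0 members and 102 genes (0.818%) in all. The intervals are those of the fit without the block.

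The members varied between mice in a shared way. The median SD within groups was 0.14 on the log2 scale for the 52 genes and 0.18 for all genes. Mice A and B averaged below mice C, D and E in 45 of the 52 members, by a median of -0.14, while 5874 of the 12465 genes tested were below. This division of the mice was made after their values were seen. The largest gaps were in Myo1g (-1.05), Enah (-0.92), Marcks (-0.91), Coro1a (-0.66) and Actg1 (-0.45), all of which separated these mice in 4 of 4 groups. The 6 mature dendritic cell markers Ccr7, Fscn1, Ccl22, Cd83, Relb and Il12b divided the mice in the same manner, with mean sums of 777, 739, 2581, 2419 and 2455 CPM in mice A to E.

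**Figure D4:**
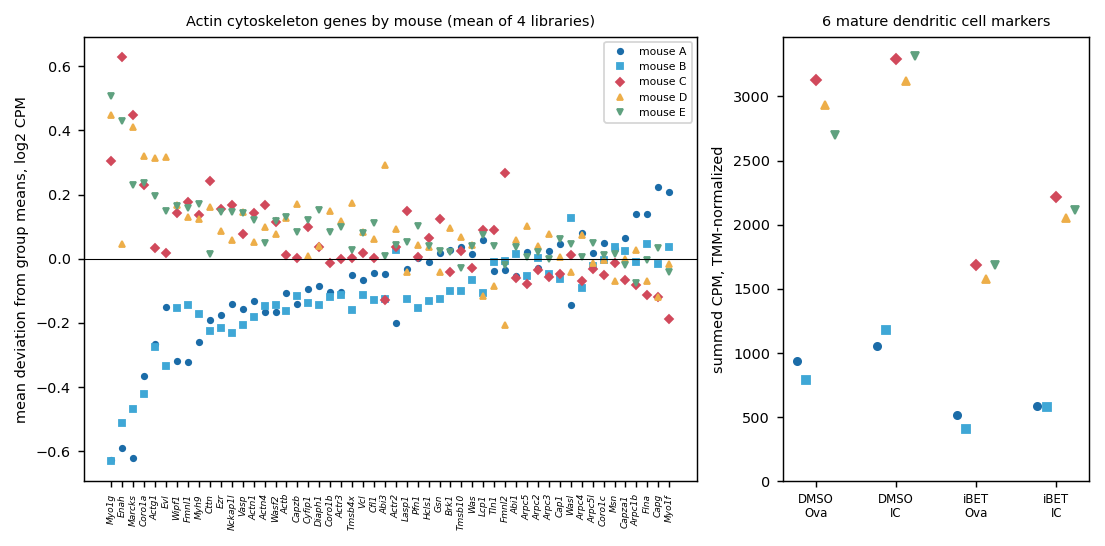
Left, the mean deviation of each mouse from the group means (vertical axis, log2 CPM, mean of 4 libraries) for the 52 genes, ordered by the gap between mice A and B and mice C, D and E. Right, the summed TMM-normalized CPM of 6 mature dendritic cell markers in the 20 libraries, where mice A and B lie between 404 and 1180.1 CPM and the other mice between 1579 and 3318 CPM.

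The mean of the same marker sum was lower with iBET. It was 2098 ± 1136 CPM in DMSO Ova against 1176 ± 654 in iBET Ova, and 2392 ± 1167 in DMSO IC against 1511 ± 846 in iBET IC. The macrophage marker sum went from 1690 ± 292 to 1203 ± 166 CPM with Ova and from 1743 ± 258 to 1369 ± 240 CPM with IC. That of the 8 dendritic cell markers went from 5431 ± 968 to 5981 ± 972 and from 6336 ± 1201 to 6998 ± 1361 CPM, a sum made up mostly of Cd74 and Itgax. Other markers of that list had lower means with iBET, such as Ciita, the class II transactivator, with 43.8 and 1.36 CPM in DMSO Ova and iBET Ova and 46.6 and 1.06 CPM in the IC groups. Flt3 averaged 3.03 and 0.242 CPM and Zbtb46 24.5 and 20.0 CPM with Ova. Their part in the changes of the members was not tested. The sign of the iBET effect was the same in mice A and B as in mice C, D and E for 30 of the 30 members called with Ova and 30 of the 31 called with IC (Abi1 being the other), and differed for 10 and 5 of all 52. The called members were chosen by a test on these same mice, so their agreement in sign is not an independent check. The values of 5 members with wide or large changes follow. With Ova the iBET effect was -2.70 in mice A and B and -2.37 in mice C, D and E for Evl, and -1.70 and -1.72 for Fmnl1. For Marcks it was -0.98 and -1.05, for Myo1g -1.76 and -1.42, and for Vcl 1.40 and 1.00.

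Other genes of the pathway, taken from lists that were written with earlier results of these data known, were examined in the same fit. Of these, 120 were in the table and 114 of them were tested, and 14 rose and 51 fell with Ova, 15 rose and 41 fell with IC. Of all genes 27.7% rose and 28.9% fell with Ova and 27.1% and 29.0% with IC, and these shares are also the background of the lists that follow, whose genes were not chosen independently of these data. Of 16 podosome and integrin adaptor genes, 12 fell with Ova and 11 with IC, and 1 rose under each. Of 30 tested paralogs of the members, 6 rose and 5 fell with Ova and 6 rose and 3 fell with IC. Tropomyosins, fascin and other filament binders had 2 higher and 11 lower of 25 with Ova and 3 and 9 with IC. For IC against Ova, 9 of the 114 rose and 15 fell with DMSO, and 3 rose and 9 fell with iBET, where 9.59% and 10.7%, and 5.19% and 6.63%, of all genes did.

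**Figure D5:**
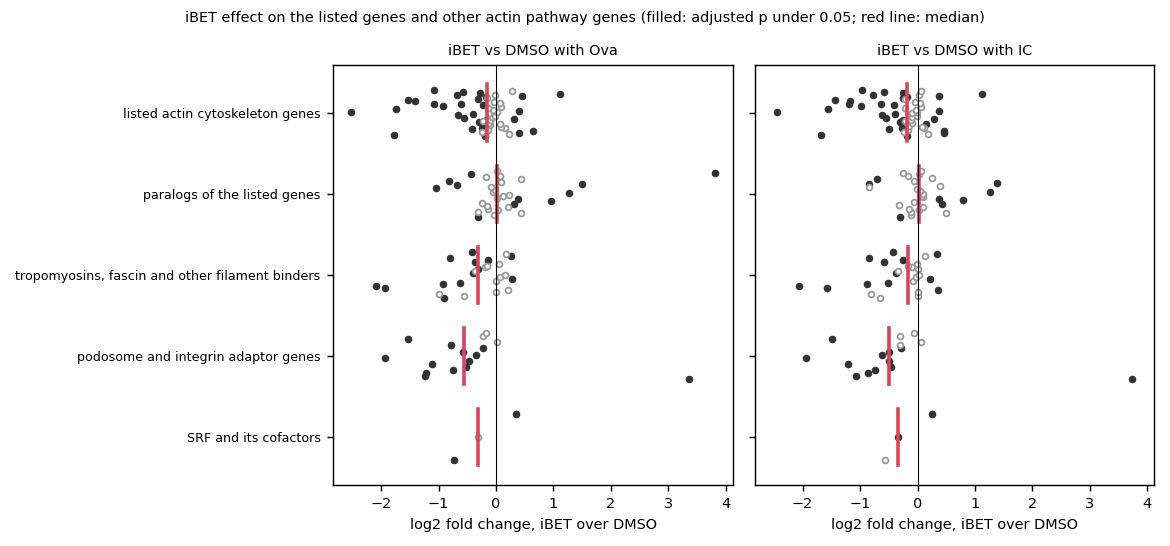
The log2 fold change of iBET over DMSO (horizontal axes) for the 52 listed genes and for 4 lists of other actin pathway genes, with Ova (left) and IC (right). Each point is a gene, filled points passed an adjusted p of 0.05, red lines are medians, and a gene with 0 counts in a group (Wasf1 with IC) is left out of that panel. The median of the podosome genes lies at -0.55 with Ova and -0.50 with IC, left of the other lists shown.

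Of these genes, those that fell most were Fscn1, Pstpip1 and Eps8. Fascin (Fscn1), which bundles filaments in mature dendritic cells and is itself one of the mature markers above, averaged 268 ± 175 CPM in DMSO Ova and 63.1 ± 45.8 in iBET Ova (-2.09 ± 0.71, adjusted p = 0.0176). With IC it averaged 238 ± 136 and 57.3 ± 40.4 CPM (-2.06 ± 0.71, adjusted p = 0.0191), and it differed widely between mice. Eps8, a capping and bundling protein, fell, at -1.94 ± 0.066, adjusted p = 1.92e-14, and -1.57 ± 0.065, adjusted p = 2.33e-13, and Pstpip1, a WASP-binding adaptor, at -1.94 ± 0.085, adjusted p = 5.67e-13, and -1.94 ± 0.086, adjusted p = 6.11e-13. The largest rises were in Wasf1, Bcar1 and Myo1d. Wasf1 and Bcar1 had at most 4 counts in any DMSO library and passed the filter on low counts only through iBET libraries. Their place among the rises thus depended on high values with iBET, so counts and no adjusted p are given for them. The class I myosin Myo1d rose by 1.49 ± 0.14, adjusted p = 1.52e-08, and 1.39 ± 0.14, adjusted p = 4.12e-08, opposite to Myo1f and Myo1g. Wasf1 (WAVE1) had 3 counts over the 5 DMSO Ova libraries and 47 over the iBET Ova libraries, a ratio of 16.0 (95% counting interval 5.14 to 80.1). With IC it had 0 counts with DMSO and 54 with iBET, at least 17.2-fold higher against a floor of 3 counts over the group, and the lower 95% counting limit of the ratio was 13.5. These counting limits pool the reads of 5 mice and leave out the spread between mice. Bcar1 (p130Cas), an integrin adaptor, had 11 counts with DMSO and 113 with iBET in the Ova cultures, and 9 and 126 with IC.

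Serum response factor and its actin-regulated cofactors, known drivers of actin gene transcription, moved apart. Srf averaged 36.9 ± 2.82 CPM in DMSO Ova and 47.1 ± 7.65 in iBET Ova and rose under both stimuli (0.35 ± 0.10, adjusted p = 0.00578, and 0.26 ± 0.10, adjusted p = 0.0345). Mkl1 averaged 122 ± 39.1 and 73.3 ± 21.2 CPM with Ova and fell (-0.74 ± 0.27, adjusted p = 0.0264), a call that was lost without mouse C, D or E. With IC its change was -0.57 ± 0.27, adjusted p = 0.0786, and it passed with the mouse block (adjusted p = 6.34e-06). Mkl2 had -0.31 ± 0.14, adjusted p = 0.0684, with Ova and passed with IC (-0.34 ± 0.14, adjusted p = 0.0436), where the call was lost without mouse A, B, C or D and without the low-count filter.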

How the data were processed

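RNA from BMDCs of 5 mice in 4 groups was made into libraries with a SMARTer pico-input kit. The labels say that cells were sorted into lysis buffer, whereas the study's methods say that they were lysed in culture. The submitters' processing notes name CASAVA, FastQC, Trim Galore, HISAT2, featureCounts and the mm10 build, and tool versions, the counting annotation and the strand setting are not given in the sources used here, so reads of overlapping genes may not be told apart. The authors deposited raw counts per gene, and a second table in which the deposited values are normalized signal, that is, counts scaled by 1 factor per library.

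Counts were tested with edgeR 4.0.16 in R 4.3.3 (filterByExpr, TMM, quasi-likelihood test) in one fit of the 20 libraries, with Benjamini-Hochberg adjustment over the 12465 genes tested and a threshold of 0.05. Of the 24421 genes listed, 6187 had no count. Group and mouse were taken from the labels. Each mouse is in all 4 groups, so the mouse letters pair the samples: deviations from group means correlated at r = 0.52 on average for the same mouse (lowest of 30 pairs 0.31) and -0.13 for different mice (120 pairs). No pair of replicates agreed within sampling noise. Alternatives were the mouse block, DESeq2 1.42.0, its size factors, library size alone, svaseq (sva 3.50.0, 3 surrogate variables), no low-count filter, limma 3.58.1 on log2 of the normalized values plus 1, each mouse left out, and a log2 fold change of at least 1. Separate fits of mice A, B and of mice C, D, E were added after seeing the data.

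The members, gene lists and tests were chosen with earlier results of these data known. The text names, in each comparison of 2 groups, the called members that rose most and fell most (up to 5 each), the actins and thymosins, the member of each role with the highest mean CPM, the 2 members with the smallest interaction p, the pathway genes most raised and most lowered by iBET (3 each), and Srf, Mkl1 and Mkl2. Other named members fill out their role. Some of the pathway lists counted in the total are not reported here. Gene positions are those of GENCODE M21 (mm10). In simulated data of 12465 genes, 100 were changed by 0.5 and 100 by 1 on the log2 scale, without mouse pairing. The iBET comparison with Ova recovered 53% and 76% of them, and the interaction 22% and 68%. In the data 56.6% of genes passed for iBET with Ova and 0.0401% for the interaction, so these shares describe the simulated setting alone.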

Additional observations from a re-analysis of the deposited data

Results flagged for a closer look

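In 5 of 208 groups of 5 libraries 1 library stood apart from the other 4 by Dixon's criterion, which chance meets in about 1 in 20 groups. Coro1c read 255 CPM in mouse B of iBET Ova, and 274 to 280.5 CPM in the other mice. Gsn read 304 CPM in mouse C of iBET IC, and 259.7 to 268 CPM in the others. Hcls1 read 86.9 CPM in mouse C of iBET IC, and 76.1 to 79.2 CPM in the others. Wasl read 20.5 CPM in mouse E of iBET IC, against 15.2 to 16.5 CPM, and 23.2 CPM in mouse B of iBET Ova, against 15.4 to 17.3 CPM. The flagged libraries were 2 of mouse B, 2 of mouse C and 1 of mouse E.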

How the results depend on the processing

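The iBET counts kept within 1.5 times of 30 and 31 under every alternative run except a log2 fold change of at least 1, which left 8 members with Ova and 7 with IC and 0 in both IC comparisons. Leaving out 1 mouse gave 23 to 28 calls with Ova and 24 to 29 with IC. The IC count with DMSO (13) was 25 with the mouse block, 28 by DESeq2 with the block, 7 with library size alone, 25 with svaseq, 8 without the low-count filter, 3 to 13 with 1 mouse left out, and 3 in mice A and B. The IC count with iBET (5) was 24 with the block, 11 by DESeq2, 27 by DESeq2 with the block, 2 with library size alone, 16 with svaseq, 3 without the filter, 0 to 3 with 1 mouse left out, and 0 in mice A and B and 0 in mice C, D and E. The interaction (0) gave 1 call by DESeq2 with the block. Tmsb4x changed sign with Ova without the filter (0.00011), without mouse B (0.00026, range -0.042 to 0.00026 with 1 mouse left out) and in mice A and B (0.024), and with IC with library size alone (-0.027), without mouse A (-0.012, range -0.012 to 0.086) and in mice C, D and E (-0.028). Mkl2 with Ova was 0.012 in mice A and B. The causes were not tested, except that subsets of mice hold fewer samples.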
